A study of Mus musculus with 21 samples.

Results

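The glycolytic isozymes described here are 10 genes that encode hexokinases (Hk1, Hk2), phosphofructokinase subunits (Pfkl, Pfkm, Pfkp), enolases (Eno1, Eno3), glyceraldehyde-3-phosphate dehydrogenase (Gapdh) and lactate dehydrogenase subunits (Ldha, Ldhb). They were chosen by name, and all 10 had a row among the 24421 genes of the joint count table. They were followed through RNA, GATA4 occupancy and open chromatin in mouse heart ventricles at E12.5. RNA came from endothelial cells (EC) in 2 libraries and from cardiomyocytes (CM) in 3 libraries. The EC were sorted by the GFP of a Rosa26fsTrap reporter switched on by Tie2-Cre, with 60K cells per library. For the CM no sort or isolation step is described in the sources used here. GATA4 was mapped by bioChIP, in which Cre switches on biotinylation of tagged GATA4 in 1 lineage of the ventricle and streptavidin pulls it down. There were 3 Tie2-Cre libraries and 3 Tnnt2-Cre libraries, each from 15 to 20 pooled hearts. Tie2-Cre marks endothelial and endocardial cells and is also active in blood cells, and Tnnt2-Cre marks cardiomyocytes. Open chromatin was mapped by ATAC in 3 EC libraries labelled Gata4 ko, in 3 labelled Gata4 het and in 2 of Tie2-Cre, Rosa26fsTrap EC. The ko and het embryos shared the Cdh5(Pac)-CreERT2 driver, the Rosa26mTmG reporter, 1 mg of tamoxifen to the mother at embryonic day 9.5 and 20K sorted cells, against 40K for the Tie2-Cre EC. The labels give no Gata4 allele, and ATAC peaks do not measure the Gata4 transcript, so its loss was not checked here. CM ATAC was not analysed here.

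Glycolysis turns glucose into pyruvate with a small gain of ATP, and lactate dehydrogenase turns pyruvate into lactate and regenerates NAD. Several steps can be run by more than 1 gene product. Hexokinase 1 is the widespread form and hexokinase 2 the insulin-responsive form of muscle and fat. Phosphofructokinase is a tetramer of liver-type (Pfkl), muscle-type (Pfkm) and platelet-type (Pfkp) subunits. Eno1 is the widespread enolase and Eno3 the form of striated muscle. The lactate dehydrogenase tetramer mixes the Ldha subunit, which predominates in skeletal muscle, and the Ldhb subunit, which predominates in adult heart. The embryonic heart is known to rely on glycolysis and lactate before fatty acid oxidation takes over after birth.

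Stretches of some promoters that hold the words searched are shown first, because GATA4 peaks and RNA are compared at these genes below. RefSeq (GRCm38.p6) gave 17 promoters of 300 bases for the 10 genes, from 250 bases before the start to 50 after it. The GATA word searched was AGATAA, with T also allowed as its first base and G as its last, on both strands. It occurred in 5 of the 17, at Pfkm, Eno3 and Gapdh. Of all 32851 RefSeq promoters, 29.8% held it. The word ACGTG, the core of hypoxia-response and E-box elements, occurred on either strand in 6 promoters, at Hk1, Hk2, Pfkm, Gapdh and Ldha, against 19.6% of all promoters. A palindromic CACGTG holds that word on both strands. The stretches below run 5′ to 3′ on the strand of the gene, with the words in capitals, GATA words for Pfkm, Gapdh and Eno3 and ACGTG words for Ldha. A word is a match of letters, not a shown binding site.
Pfkm, outermost start, chr15:98092439-98092588, plus strand: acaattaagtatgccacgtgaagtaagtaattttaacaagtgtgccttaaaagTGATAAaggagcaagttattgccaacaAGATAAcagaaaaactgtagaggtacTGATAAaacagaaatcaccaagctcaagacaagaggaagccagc
Pfkm, a start within the gene, chr15:98108271-98108370, plus strand: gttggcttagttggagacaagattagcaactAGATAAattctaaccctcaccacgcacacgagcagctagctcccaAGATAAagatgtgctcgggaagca
Gapdh, chr6:125165774-125165923, minus strand: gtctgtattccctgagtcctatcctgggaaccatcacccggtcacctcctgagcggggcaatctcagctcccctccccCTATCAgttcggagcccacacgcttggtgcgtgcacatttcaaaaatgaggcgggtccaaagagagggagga
Eno3, chr11:70657076-70657185, plus strand: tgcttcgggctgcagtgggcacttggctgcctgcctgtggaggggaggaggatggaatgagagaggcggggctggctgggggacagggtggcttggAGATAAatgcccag
Ldha, chr7:46845644-46845803, plus strand: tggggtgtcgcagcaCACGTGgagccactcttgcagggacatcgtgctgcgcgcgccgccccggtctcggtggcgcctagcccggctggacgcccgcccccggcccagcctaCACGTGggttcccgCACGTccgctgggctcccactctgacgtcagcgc
The 3 words before the outermost Pfkm start lie at positions -97, -70 and -44, the Gapdh word at -72 to -67, and the Eno3 word spans the start from -4 to 2.

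Depth and identity of the RNA libraries were checked before the members were compared. The EC libraries held 27660790 and 21682362 counted reads, the CM libraries 48393473, 42948614 and 45522886. The 7 endothelial markers (Cdh5, Pecam1, Kdr, Tek, Tie1, Emcn, Eng) summed to 4880 to 4933 counts scaled to library size (CPM) in EC and 623 to 719 CPM in CM. The CM level was a median 15.8% of the EC level over these markers. The 7 cardiomyocyte markers (Tnnt2, Myh6, Myh7, Actn2, Ttn, Nppa, Ryr2) summed to 367 to 380 CPM in EC and 74956 to 83700 CPM in CM, so each label's defining markers were highest in its own libraries. For these genes the EC level was a median 0.962% of the CM level, from 0.106% (Ttn) to 2.16% (Actn2). Erythroid markers summed to 21.6 to 25.9 CPM in EC and 1419 to 3291 CPM in CM, with Hba-a1 at 0 counts in all 5 libraries. Leukocyte markers summed to 10.5 to 11.4 CPM in EC and 5.97 to 6.09 CPM in CM. Epicardial and fibroblast markers summed to 1423 to 1498 CPM in EC and 466 to 494 CPM in CM, but differed in direction. Of these, 4 were higher in EC (Postn, Col1a1, Pdgfra, Tcf21) and 3 were lower (Wt1, Tbx18, Upk3b). Most of the EC sum was Postn, at 941 and 890 CPM. Tbx18 had 19.6 and 14.6 CPM in EC, against 123, 120 and 114 CPM in CM. The ribosomal precursor Rn45s took 5.34% and 5.77% of the EC counts and 0.118% to 0.200% of the CM counts. The part of other cells and of this RNA in the results below was not tested. In these bulk libraries fewer cells of a type and less RNA per cell cannot be told apart.

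Most of the isozyme genes were lower in EC than in CM. Together they took 0.112% and 0.114% of EC counts and 0.254% to 0.284% of CM counts. All 10 passed the low-count filter. In edgeR's quasi-likelihood test over 14851 genes, with Benjamini-Hochberg adjustment at 0.05, 8 of the 10 were lower in EC, where 40.2% of all tested genes were lower. The other 2, Gapdh and Eno1, were higher in EC, where 37.5% of all tested genes were higher. The median log2 fold change (EC over CM) was -1.72 over the 10 and -0.06 over all tested genes. The EC and CM libraries did not overlap at any of the 10, nor at 85.3% of all tested genes. The 8 lower genes stood in EC at a median 28.2% of their CM level, from 2.53% (Eno3) to 64.1% (Ldha).

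**Figure D1:**
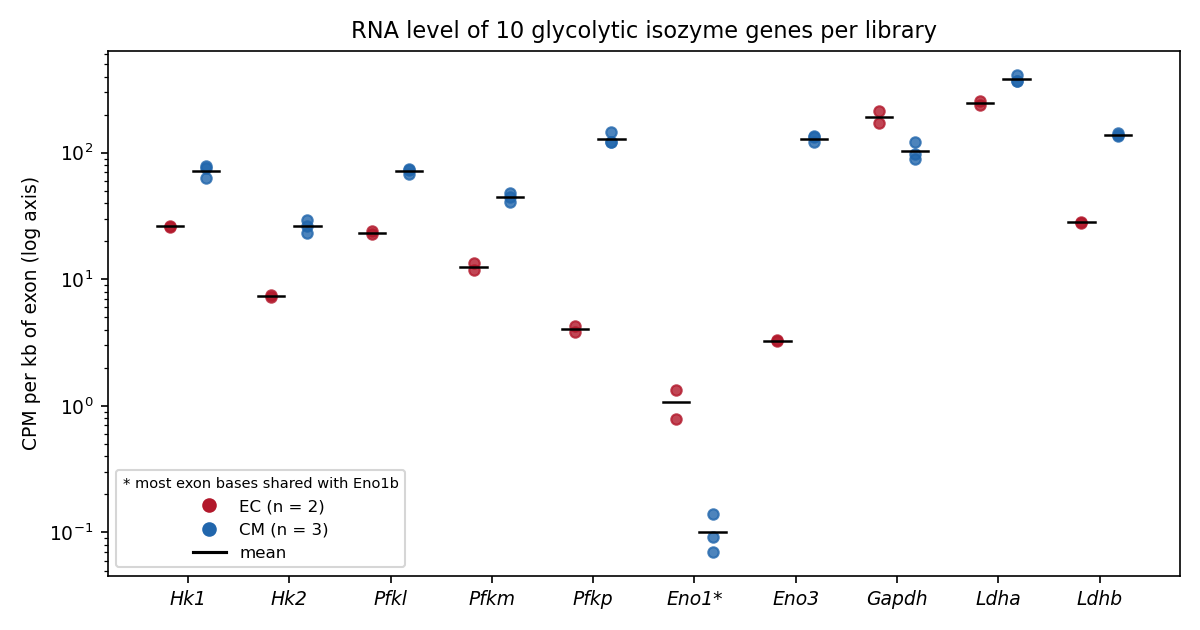
RNA level of each isozyme gene in CPM per kb of exon on a log axis, with 1 point per library, EC (n = 2, left) beside CM (n = 3, right), and bars at the mean. Ldha leads in both cell types, while Pfkp and Eno3 show the widest EC to CM gaps among the genes with no shared exon bases, and the asterisk marks Eno1, 92.8% of whose exon bases are shared with Eno1b.

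Both hexokinase genes, whose products phosphorylate glucose, were lower in EC. Hk1 had 118 and 118 CPM in EC, against 282, 340 and 356 CPM in CM. Its log2 fold change was -1.47 ± 0.10 (SE), with an adjusted p of 2.07e-07 in edgeR. Hk2 had 41.3 and 39.9 CPM in EC, against 127, 145 and 163 CPM in CM. The change of Hk2 was -1.83 ± 0.11, with an adjusted p of 5.77e-08 in edgeR. CM replicate 1 was the lowest CM library for both genes, still more than every EC library. Hk1 is also a red cell enzyme, and the embryonic globin gene Hbb-y had 12.3 and 11.8 CPM in EC, against 3025, 2254 and 1213 CPM in CM replicates 1 to 3. The part of red cells in the Hk1 difference was not tested.

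All 3 phosphofructokinase subunit genes, which encode the committing step of glycolysis, were lower in EC, by unequal amounts. Pfkl had 85.0 and 88.8 CPM in EC, against 279, 269 and 252 CPM in CM, a log2 fold change of -1.62 ± 0.08 with an adjusted p of 1.12e-08 in edgeR. Pfkm had 41.0 and 35.9 CPM in EC, against 125, 136 and 146 CPM in CM, a log2 fold change of -1.82 ± 0.10 with an adjusted p of 2.63e-08. Pfkp had 17.8 and 16.1 CPM in EC, against 507, 508 and 606 CPM in CM. Its log2 fold change was -4.99 ± 0.12 (adjusted p = 8.41e-11 in edgeR), with a CM mean 31.8 times the EC mean. The platelet-type subunit was the most abundant of the 3 in CM and the least abundant in EC.

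The striated muscle enolase gene Eno3 had the greatest fall of the 10. It had 5.28 and 5.25 CPM in EC, against 212, 195 and 217 CPM in CM, a log2 fold change of -5.30 ± 0.10 with an adjusted p of 3.11e-11 in edgeR. The CM mean was 39.4 times the EC mean. By the distance between centred log2 CPM profiles over the 5 RNA libraries, the genes most like Eno3 among 8063 candidates were Srl (distance 0.12), which encodes the sarcoplasmic reticulum protein sarcalumenin, Mtus2 (0.13) and Myl9 (0.16).

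Eno1, the widespread enolase gene, had the counts of only a short stretch. Of its 1776 exonic bases in the count table, 1649 (92.8%) lie on the same strand in exons that the table also gives to Eno1b, and the counting program by default drops a read that falls in exons of 2 genes. The 127 bases that are Eno1's alone are at chr4:150237197-150237323, at the start of the gene. The other 9 genes share no exon bases with any gene on their strand, and 2.27% of all 24421 genes share at least 90 percent. The Eno1 row held 67 and 31 counts in EC, against 6, 7 and 11 counts in CM, or 2.37 and 1.40 CPM in EC and 0.125, 0.165 and 0.247 CPM in CM. The log2 fold change of that row was 3.40 ± 0.44, with an adjusted p of 3.67e-05 in edgeR. Per kb of the 127 bases, Eno1 came to 18.7 and 11.1 CPM in EC, against 0.98, 1.30 and 1.94 CPM in CM. Eno1b had 194 and 188 counts in EC and 169, 163 and 122 counts in CM, a log2 fold change of 1.19 ± 0.20. With the rows of both genes summed the log2 fold change was 1.43 ± 0.17 (adjusted p = 2.02e-05 in edgeR), a setting added after the overlap was seen. Neither row measures the level of the enolase 1 transcript, and the direction of Eno1 in EC against CM rests on these few reads. The genes most like the Eno1 row among 8064 candidates were S100a11 (distance 0.25), Nfatc4 (0.31) and Mbd6 (0.33).

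Gapdh, which oxidises glyceraldehyde 3-phosphate and makes NADH, was the isozyme gene with full exon counts that was higher in EC. It had 259 and 318 CPM in EC, against 134, 147 and 181 CPM in CM, with no overlap. The log2 fold change was 0.90 ± 0.12, with an adjusted p of 5.48e-05 in edgeR, under a 2-fold difference. The mouse genome holds many processed copies of Gapdh, and reads that match several places are not counted by default, so its level is uncertain. The loss of such reads was not measured for any isozyme gene. Gapdh is often taken as a constant reference transcript, and here the CM mean was 0.535 times the EC mean.

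Both lactate dehydrogenase genes were lower in EC, Ldhb more than Ldha. Ldha had 490 and 462 CPM in EC, against 713, 718 and 799 CPM in CM. Its log2 fold change was -0.64 ± 0.08 (adjusted p = 2.23e-05 in edgeR), the smallest of the 10. Ldhb had 36.1 and 37.3 CPM in EC, against 181, 176 and 186 CPM in CM, a log2 fold change of -2.30 ± 0.08 with an adjusted p of 7.34e-10. In edgeR's test against a 2-fold change, neither Gapdh nor Ldha was called, and the other 8 kept their calls.

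Levels were compared between genes as CPM per kb of exon. The order in EC was Ldha (247), Gapdh (193), Ldhb (28.2), Hk1 (26.2), Pfkl (23.4), Pfkm (12.6), Hk2 (7.37), Pfkp (4.05), Eno3 (3.28) and the Eno1 row (1.06). The order in CM was Ldha (385), Ldhb (139), Eno3 (130), Pfkp (129), Gapdh (103), Hk1 (72.3), Pfkl (71.7), Pfkm (44.5), Hk2 (26.3) and the Eno1 row (0.10). In EC no neighbours in this order overlapped between libraries. In CM the range of Pfkp over the 3 libraries overlapped those of Ldhb, Eno3 and Gapdh, and Hk1 overlapped Pfkl. Ldha led in both cell types, and Eno3 and Pfkp, at ranks 9 and 8 in EC, were at ranks 3 and 4 in CM.

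The isozyme pairs show which form made up more of the RNA within a library, a measure that does not depend on how libraries were scaled. The 6 pairs were compared as log2 ratios of counts per kb with 0.5 counts added. With 2 EC libraries against 3 CM libraries an exact two-sided permutation test cannot give a p under 0.2, so no pair could pass 0.05. Lactate dehydrogenase RNA was 89.8% ± 0.59 Ldha in EC and 73.5% ± 0.83 Ldha in CM (SD, n = 2 and n = 3). The Ldha to Ldhb log2 ratio was 3.20 and 3.07 in EC and 1.41, 1.46 and 1.54 in CM, a difference of 1.66 with an exact p of 0.2 (0.24 adjusted over the 6 pairs). The groups did not overlap, and Ldha was the more abundant form in every library.

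Hexokinase RNA was 78.0% ± 0.34 Hk1 in EC and 73.3% ± 0.70 Hk1 in CM. The Hk1 to Hk2 log2 ratio was 1.81 and 1.85 in EC and 1.44, 1.52 and 1.42 in CM, a difference of 0.37 (exact p = 0.2, 0.24 adjusted). Hexokinase 1 RNA was thus the larger part in all 5 libraries, with a gap between cell types smaller than those of the other pairs whose groups did not overlap.

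Phosphofructokinase RNA had a different make-up in each cell type. Pfkl, Pfkm and Pfkp were 58.4% ± 2.9, 31.5% ± 2.4 and 10.1% ± 0.53 of it in EC, and 29.3% ± 3.0, 18.1% ± 0.72 and 52.5% ± 2.7 in CM (SD). The Pfkl to Pfkp log2 ratio was 2.42 and 2.63 in EC and -0.69, -0.74 and -1.10 in CM, a difference of 3.37, and the sign of the ratio differed between the cell types. The Pfkm to Pfkp log2 ratio was 1.66 and 1.61 in EC and -1.56, -1.45 and -1.60 in CM, a difference of 3.17. Both differences had an exact p of 0.2 (0.24 adjusted). The Pfkl to Pfkm log2 ratio was 0.77 and 1.02 in EC and 0.87, 0.70 and 0.50 in CM, and here the groups overlapped (difference 0.20, exact p = 0.4, 0.4 adjusted). The ratios to Pfkp were thus the ones that turned between the cell types, while Pfkl was ahead of Pfkm in all 5 libraries.

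The enolase pair is limited by the Eno1 row. The Eno1 to Eno3 log2 ratio per annotated length was -1.29 and -2.03 in EC and -10.76, -10.26 and -9.86 in CM, a difference of 8.63 (exact p = 0.2, 0.24 adjusted). It was 6.74 with the Eno1 and Eno1b counts summed, beside the log2 fold change of Eno3 alone of -5.30. The ratio gives no share of enolase 1 in the RNA of either cell type.

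**Figure D2:**
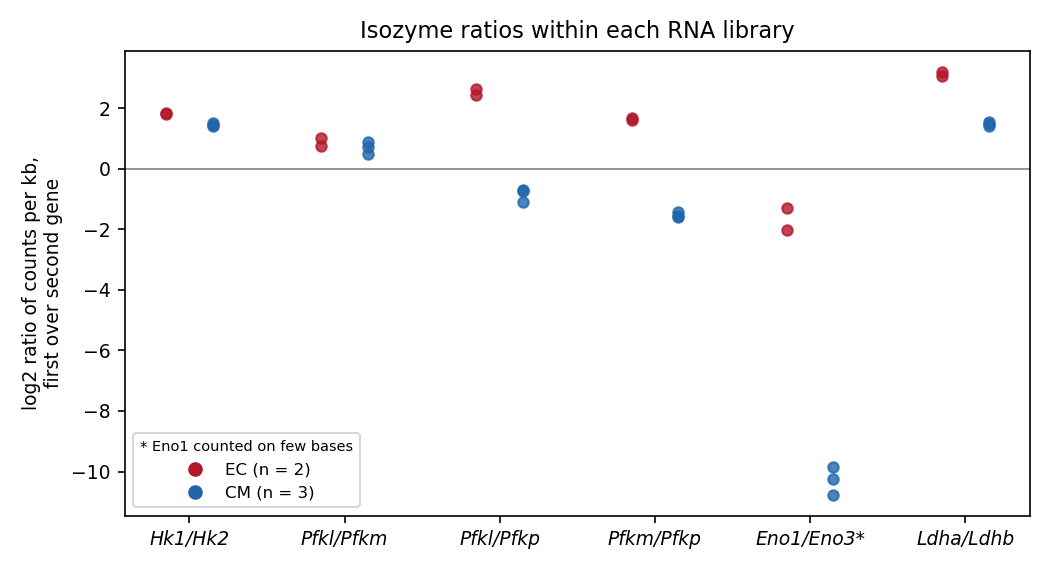
Log2 ratio of counts per kb of the first over the second gene of 6 isozyme pairs, 1 point per RNA library, EC (n = 2) left of CM (n = 3). The EC and CM points overlap for Pfkl/Pfkm and are apart for the other 5 pairs, and the ratios to Pfkp lie above 0 in EC and below 0 in CM.

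Other genes of glucose use were counted from a list of 34 genes. All 5 glucose and lactate transporter genes were lower in EC (median log2 fold change -1.55). Slc16a1, which encodes the lactate carrier MCT1, had a log2 fold change of -2.95 ± 0.08, the insulin-responsive glucose carrier gene Slc2a4 -3.54 ± 0.13 and the widespread Slc2a1 -1.55 ± 0.07, with adjusted p in edgeR of 1.88e-10, 1.78e-09 and 9.15e-09. Slc2a3 (-1.09) and Slc16a3 (-1.53) were the other 2.

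Of 19 further glycolytic enzyme genes, 13 passed the filter, 11 of which were lower and 2 higher in EC. Their median log2 fold change was -1.08. It was the same with the genes at 0 counts in a group put at 3 counts in each library of that group. Those genes stay on their side of the median at either value, so this is no check of it. Pgam2, the muscle form of phosphoglycerate mutase, had 3.79 and 4.26 CPM in EC, against 293, 312 and 353 CPM in CM, and its log2 fold change of -6.31 ± 0.13 (adjusted p = 3.85e-11 in edgeR) was below that of every isozyme gene above. Its widespread counterpart Pgam1 changed by -0.87 ± 0.09. The aldolase gene Aldoa (-1.70), the triose phosphate isomerase gene Tpi1 (-2.02), Pgk1 (-1.08) and Gpi1 (-0.99) were lower too. So were Bpgm (-0.50), the pyruvate kinase gene Pkm (-0.92) and the neural forms Eno2 (-3.29) and Aldoc (-3.68). Bpgm had 27.6 and 27.3 CPM in EC, against 43.1, 43.4 and 30.0 CPM in CM replicates 1 to 3. The part of red cells in the Bpgm difference was not tested. Hkdc1 had 0 counts in both EC libraries and 0.978, 1.15 and 0.943 CPM in CM, and the leukocyte hexokinase gene Hk3 had 0.425 and 0.724 CPM in EC and 0 counts in CM. No fold is given for these 2. Adpgk, whose product phosphorylates glucose with ADP, was higher in EC (1.14 ± 0.10, adjusted p = 1.36e-06 in edgeR).

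Of 5 regulator genes, 3 were higher and 1 lower in EC (median 0.58). Pfkfb3, whose product makes the phosphofructokinase activator fructose 2,6-bisphosphate, had 45.2 and 37.4 CPM in EC, against 15.7, 14.5 and 14.8 CPM in CM (log2 fold change 1.46 ± 0.11, adjusted p = 3.09e-07 in edgeR). Pfkfb4 (0.74) and Pfkfb1 (0.58) were higher, Pfkfb2 (-1.12) was lower and Tigar (-0.25, adjusted p = 0.21) was not called. Of the 5 genes at the entry of pyruvate into mitochondria, 4 were lower in EC: Pdk1 (-3.54), Pdk3 (-3.31) and Pdk4 (-0.84), which encode kinases that inhibit pyruvate dehydrogenase, and Pdha1 (-2.45), a subunit of that enzyme. Pdk2 (0.58, adjusted p = 0.0566) was not called.

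**Figure D3:**
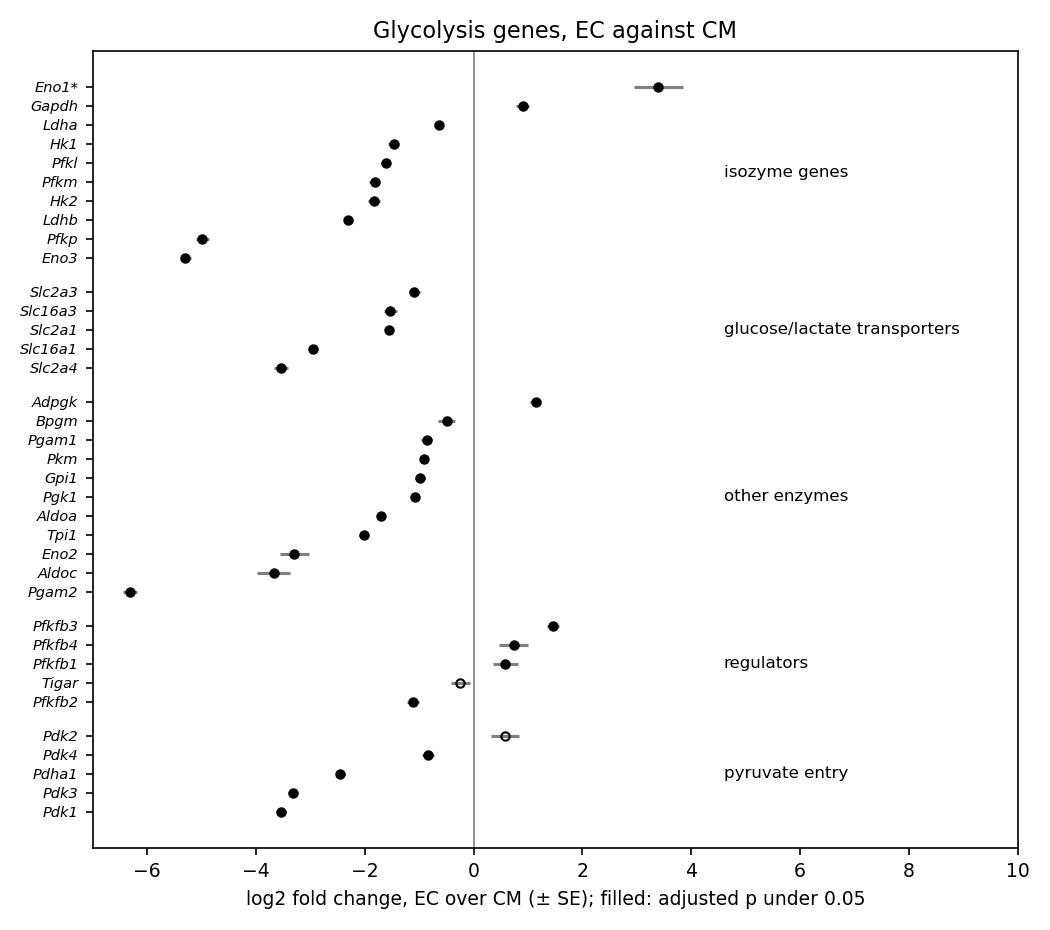
Log2 fold change (EC over CM) with its SE for the 10 isozyme genes and the other tested genes of glucose use, by role and without the 2 that had 0 counts in a group, filled where the adjusted p was under 0.05. Among the called genes, Gapdh, Adpgk, 3 Pfkfb genes and the Eno1 row (asterisk, shared exon bases) lie right of 0, and Pgam2 lies farthest to the left.

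GATA4 peaks near the isozyme genes were counted in the gene body and within 50 kb on either side, in the authors' peak list of each library. Tie2-Cre replicates 1 to 3 had 16, 4 and 27 such peaks among 17682, 2734 and 25936 in all, and Tnnt2-Cre replicates 1 to 3 had 33, 4 and 53 among 22814, 3603 and 30447. Replicate 2 of each lineage had a short list. Per 1000 peaks this was 1.14 ± 0.29 in Tie2-Cre and 1.43 ± 0.32 in Tnnt2-Cre (SD, n = 3 each). The difference was -0.30, about the size of either SD (exact two-sided permutation p = 0.3, smallest possible 0.1). Its sign turned to 0.00757 with peaks of −log10 q of at least 5 and to 0.610 with lists cut to equal length, with p = 1 and p = 0.4 in the same exact test.

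Peaks of the 6 libraries that shared at least 1 bp were merged into regions. Selective regions had peaks in 2 or 3 libraries of one lineage and none in the other, and shared regions had peaks in 2 or 3 libraries of each lineage. A Tie2-Cre-selective region lay at 4 of the 10 genes (28.1% of all genes), a Tnnt2-Cre-selective region at 6 (39.0% of all genes) and a shared region at 7 (41.1% of all genes). The counts rest on replicates 1 and 3. Tie2-Cre-selective regions were at 1 gene without Tie2-Cre replicate 1 and at 1 without its replicate 3. Tnnt2-Cre-selective regions were at 1 gene without Tnnt2-Cre replicate 1 and at 2 without its replicate 3. Shared regions were at 3 genes without either of those Tie2-Cre libraries and at 2 without either of those Tnnt2-Cre libraries. Leaving out the short lists of both lineages gave 4, 6 and 7 again. In all, 4 Tie2-Cre-selective, 14 Tnnt2-Cre-selective and 9 shared regions lay at these genes, of 6095, 9086 and 6535 in the genome. Hk2 alone had 6 of the 14. In the gene body were 0, 9 and 3 of them, and 1, 11 and 6 had a start of the 10 genes as their nearest gene start. The shares of all regions so placed were not computed. EC ATAC peaks of both Tie2-Cre libraries overlapped 4 of 4, 7 of 14 and 9 of 9 of the regions at these genes. Of all regions of these classes, 88.3%, 41.3% and 94.0% were so covered.

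**Figure D4:**
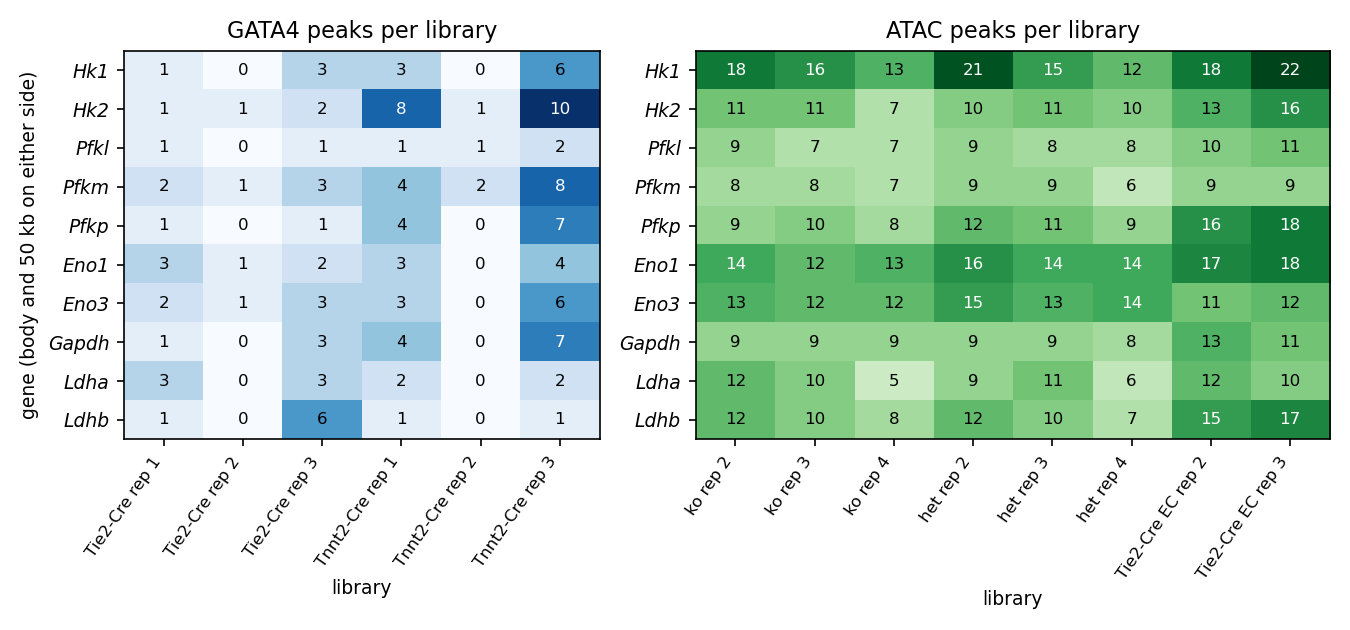
Number of peaks in the body and within 50 kb of each isozyme gene in every library, GATA4 on the left (Tie2-Cre, then Tnnt2-Cre) and ATAC on the right (ko, het, then Tie2-Cre EC). Hk2 has 8 and 10 GATA4 peaks in Tnnt2-Cre replicates 1 and 3, and the second GATA4 library of each lineage has 0 to 2 at every gene.

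Hk2 had the most GATA4 peaks of the 10, on the Tnnt2-Cre side. Tie2-Cre libraries had 1, 1 and 2 peaks in its window and Tnnt2-Cre libraries 8, 1 and 10. The window holds no start of another gene. It had 6 Tnnt2-Cre-selective regions, 5 of them in the gene body. The strongest, at chr6:82729089-82729361 in an intron 45093 bp downstream of the start, had peak folds over background of 4.41 and 7.28 in Tnnt2-Cre replicates 1 and 3, as the authors' peak caller gave them. The region at chr6:82820820-82821143, 46366 bp upstream, had folds of 4.49 and 5.23 in Tnnt2-Cre replicates 1 and 2. EC ATAC peaks of both Tie2-Cre libraries overlapped 2 of the 6, at chr6:82756738-82757163 and chr6:82762756-82763031. The shared region, at chr6:82763964-82764515 in an intron 9939 bp from the start, had folds of 6.68, 5.53 and 8.26 in the 3 Tie2-Cre libraries and 4.6 and 5.77 in Tnnt2-Cre replicates 1 and 3, and was open in all 8 ATAC libraries. No GATA4 peak overlapped the 300-base Hk2 promoter.

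**Figure D5:**
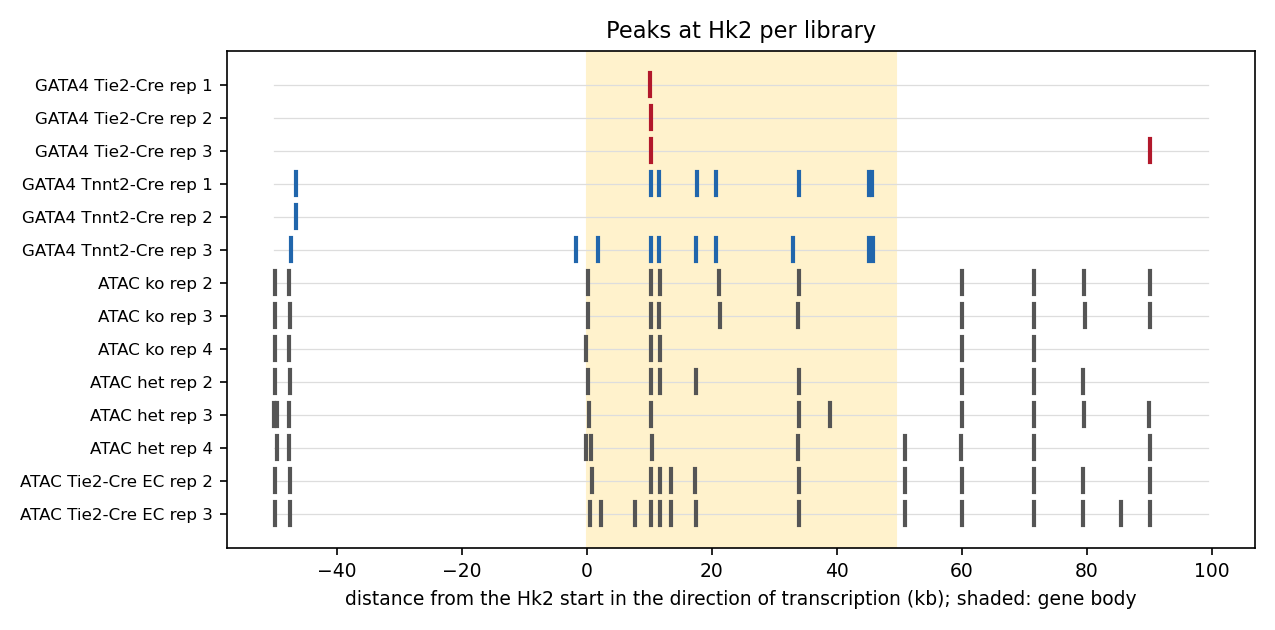
Peaks in the Hk2 window by distance from the gene start in the direction of transcription, with 1 row per library and the gene body shaded. The shared region near 10 kb carries a peak in all 3 Tie2-Cre and in 2 Tnnt2-Cre libraries, and most Tnnt2-Cre peaks in the gene body have no Tie2-Cre peak above them.

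Hk1 had 1, 0 and 3 GATA4 peaks in the Tie2-Cre libraries and 3, 0 and 6 in the Tnnt2-Cre libraries. Its 2 Tnnt2-Cre-selective regions were intronic, and the stronger, at chr10:62332652-62333240, had folds of 4.6 and 5.42 in replicates 1 and 3 and lay nearer the start of Hk1os. RefSeq gives Hk1 another start inside the gene, whose promoter was open in all 8 ATAC libraries, while the promoter of the outermost start had no peak in any library. The inner promoter carried a GATA4 peak in Tie2-Cre replicate 3 (fold 6.26) and in Tnnt2-Cre replicates 1 and 3 (3.99 and 4.14).

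At the phosphofructokinase genes both lineages had GATA4 regions. Pfkp had 1, 0 and 1 peaks in the Tie2-Cre libraries and 4, 0 and 7 in the Tnnt2-Cre libraries. One of its Tnnt2-Cre-selective regions lay 392 bp downstream of the start at chr13:6648133-6648379 (folds 3.89 and 3.63 in replicates 1 and 3), and the stronger at chr13:6657309-6657508, 8538 bp upstream (5.26 and 5.68). A shared region over an exon at chr13:6635647-6636036 had folds of 6.71 and 7.12 in Tie2-Cre replicates 1 and 3 and 5.32 and 5.74 in Tnnt2-Cre replicates 1 and 3.

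Pfkl had 1 shared region, at chr10:78018823-78019249 between genes and 9027 bp upstream, with folds of 6.0 and 7.78 in Tie2-Cre replicates 1 and 3 and 9.46, 6.55 and 13.2 in the 3 Tnnt2-Cre libraries. It was open in all 8 ATAC libraries. Pfkm had 2 shared regions, the stronger at chr15:98180903-98181758 with a peak in all 6 libraries but nearest to Ccdc184, and a Tnnt2-Cre-selective region in an intron of Asb8 at chr15:98149087-98149485 with folds of 5.05, 5.03 and 4.79. Of the Pfkm promoter stretches printed above, that of the outermost start, with 3 GATA words, lay in a promoter with an ATAC peak in 1 of 8 libraries and no GATA4 peak. A GATA4 region at chr15:98093169-98093649, 580 bp downstream of that start and over the start of Senp1, had folds of 5.63 in Tie2-Cre replicate 3 and 4.13 and 4.82 in Tnnt2-Cre replicates 1 and 3, and was open in all 8 ATAC libraries. The stretch of the inner start, with 2 GATA words, lay in a promoter open in all 8 with no GATA4 peak over its 300 bases. The overlapping promoter of a further Pfkm start holds the second of these words and carried a GATA4 peak in Tnnt2-Cre replicate 3 alone (fold 4.62).

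At the enolase genes, Eno3 had a Tnnt2-Cre-selective region 1104 bp upstream of its start at chr11:70655813-70656072, with folds of 3.14 and 2.91 in replicates 1 and 3. It lay outside the printed promoter, over which no GATA4 peak was listed. The Tie2-Cre-selective region in the Eno3 window, at chr11:70638752-70639328, had folds of 8.41, 5.83 and 10.7 in the 3 Tie2-Cre libraries but lay at the start of Gp1ba, and 11 other gene starts fall in that window. Eno1 had a shared region in an intron at chr4:150240033-150240384 (folds 5.10, 6.41 and 4.71 in Tie2-Cre, 5.91 and 6.58 in Tnnt2-Cre replicates 1 and 3), and a Tie2-Cre-selective region nearest to Rere at chr4:150272612-150273081 (4.98 and 6.76).

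Gapdh, higher in EC, had GATA4 regions of both lineages in its window. The one with the highest mean fold was shared, at chr6:125147998-125148588 in an intron of Iffo1, with folds of 4.95 and 8.01 in Tie2-Cre replicates 1 and 3 and 5.73 and 6.95 in Tnnt2-Cre replicates 1 and 3. The regions at its start were Tnnt2-Cre-selective. That at chr6:125165749-125165984 had folds of 3.14 and 3.83 in Tnnt2-Cre replicates 1 and 3 and none in Tie2-Cre, and it covers the CTATCA word printed above. It was open in all 8 ATAC libraries. A second Tnnt2-Cre-selective region lay 405 bp upstream of the outermost start at chr6:125166872-125167231 (4.2 and 4.19). Tnnt2-Cre replicate 2 had no peak at either.

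The lactate dehydrogenase genes had no Tnnt2-Cre-selective region. Ldha had 3, 0 and 3 peaks in the Tie2-Cre libraries and 2, 0 and 2 in the Tnnt2-Cre libraries. Its shared region with the highest mean fold lay at chr7:46830845-46831217, 14587 bp upstream, with folds of 3.99 and 4.29 in Tie2-Cre replicates 1 and 3 and 5.79 and 6.34 in Tnnt2-Cre replicates 1 and 3. Its other shared region, at chr7:46795540-46796173, was at the start of Hps5. Its Tie2-Cre-selective region, at chr7:46900220-46900493, was in an intron of Tsg101. Ldhb had 1, 0 and 6 peaks in the Tie2-Cre libraries and 1, 0 and 1 in the Tnnt2-Cre libraries. It had the only Tie2-Cre-selective region whose nearest start was one of the 10 genes, at chr6:142533228-142533768, 25271 bp upstream, with folds of 3.88 and 4.96 in replicates 1 and 3, and Ldhb RNA was lower in EC. Its promoter carried a GATA4 peak in Tie2-Cre replicate 3 alone (fold 4.05).

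The rates of ATAC peaks at these genes overlapped between ko and het EC. The ko libraries had 115, 105 and 89 ATAC peaks at the 10 genes, the het libraries 122, 111 and 94, and the Tie2-Cre EC libraries 134 and 144, among 55733 to 87496 peaks in ko, 67201 to 90326 in het and 114599 and 130708 in Tie2-Cre EC. Per 1000 peaks this was 1.41 ± 0.16 in ko and 1.36 ± 0.03 in het (SD, n = 3 each), a difference of 0.048 with an exact two-sided permutation p of 1. The difference was -0.0448 without ko replicate 4, the shortest list. The Tie2-Cre EC libraries had 1.17 and 1.1 per 1000. They differ from the others in driver, cell number and dissociation kit and were not tested against them.

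By the rule used for GATA4, a region open in at least 2 of 3 ko and 0 of 3 het libraries lay at 1 of the 10 genes (13.3% of all genes), and the reverse at 2 (22.4% of all genes). The ko-selective region was in the Hk2 body at chr6:82753074-82753515, with folds of 3.85 and 4.14 in ko replicates 2 and 3, and it had no peak in either Tie2-Cre EC library. Of the 5 het-selective regions 3 lay at Pfkp and 2 upstream of Eno1, at chr4:150220633-150221040 and chr4:150230528-150231434. Both Eno1 regions had a peak in both Tie2-Cre EC libraries too. Regions open in at least 2 libraries of each genotype numbered 84 and lay at all 10 genes (87.6% of all genes). They were 93.3% of the regions of these 3 kinds at the 10 genes and 90.9% of all such regions.

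Every one of the 10 genes had a promoter under an EC ATAC peak in both Tie2-Cre EC libraries, as did 52.5% of all RefSeq genes. Of the 17 RefSeq promoters, 14 were so covered, where 51.2% of all RefSeq promoters were. Genes whose RNA was far lower in EC were among them. The Pfkp promoter was open in all 8 libraries, with folds of 13.6 and 14.9 in Tie2-Cre EC. The Eno3 promoter differed: it had a peak in the Tie2-Cre EC libraries (folds 11.5 and 3.74) and in 0 of 3 ko and 0 of 3 het libraries, whose lists were shorter. The Ldha promoter with the ACGTG words was open in all 8 libraries.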

How the data were processed

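The members and gene lists were chosen with earlier results of these data known. The deposited RNA table gives counts by gene from featureCounts 1.6.3, run on mm10 with strand 1, per the file headers, whose command shows no option to count reads in several genes or places. The submitters' processing notes also name MACS2 2.2.4, STAR 2.7.3a, deepTools 3.3.1, Bowtie 1.1.1 and Bowtie2 2.2.9, without roles. The authors called peaks library by library and deposited for each peak a fold over background (a ratio), −log10 p and q values and a score, the last not used here. A missing peak does not show closed or unbound chromatin, and no source used here says whether control libraries entered the calls. The EC-only count table equalled the joint table in all 48842 cells and added nothing.

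Counts were tested with edgeR 4.0.16 in R 4.3.3 (quasi-likelihood F test after TMM scaling and filterByExpr, with Benjamini-Hochberg adjustment at 0.05) over all genes of EC and CM; CPM are TMM-scaled, gene lengths come from the deposited table, and SE is the log2 fold change over the root of F. Other settings were DESeq2 1.42.0, other scalings, a test against a 2-fold change, 20 and 100 kb windows, stricter or equal-length peak lists, and each library left out. Both steps were tested on simulated data, counts with 200 changed genes and peak lists with planted regions. Peaks and promoters were handled in Python 3.11.15 (pandas 2.3.3, scipy 1.17.1). Coordinates are mm10, counted from 1. Shares over all genes leave out 144 genes listed on more than 1 chromosome or strand. Named were all 10 members, the listed pathway genes, the 3 genes most like each enolase gene with at least 20 CPM in the higher group, and per member and class the GATA4 region with the highest mean fold plus any at a member start; others named were chosen after their values were seen, and 1 listed enzyme gene is not reported here. No label ties replicates to separate litters or cultures: p-values then measure only the spread between these libraries, which may be technical. Replicates differed by more than counting noise, with chi-square over its degrees of freedom at 8.05 in EC and 14.1 to 35.7 in CM.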

Additional observations from a re-analysis of the deposited data

How the results depend on the processing

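The 10 isozyme genes kept their direction under every scaling, filter, tool and left-out library tried. The test against a 2-fold change called 2569 genes higher and 2675 lower in EC and left 1 isozyme gene higher, the Eno1 row. In the main test 1 isozyme gene, Gapdh, remained higher without Eno1, a setting added after the data were seen. GATA4 peaks per 1000, Tie2-Cre minus Tnnt2-Cre, turned to 0.00757 with −log10 q of at least 5 and to 0.610 with equal lists. ATAC peaks per 1000, ko minus het, turned to -0.0199 within 20 kb, -0.0178 where the member start was nearest and -0.0448 without ko replicate 4. Genes with a Tie2-Cre-selective region numbered 1 within 20 kb, 2 at −log10 q of at least 5, 2 with equal lists and 1 with 3 of 3 libraries required; Tnnt2-Cre-selective and shared regions were each at 1 gene with equal lists and at 1 with 3 of 3 libraries. The cause was not tested. Leaving out each library in turn gave 5163 to 5437 genes higher and 5438 to 5904 lower, 2 and 8 isozyme genes, 1 to 4, 1 to 7 and 2 to 7 genes with Tie2-Cre-selective, Tnnt2-Cre-selective and shared regions, -0.460 to -0.142 for the GATA4 difference and -0.0448 to 0.0964 for the ATAC difference. It gave log2 ratio differences of 0.35 to 0.40 for Hk1/Hk2, 0.08 to 0.33 for Pfkl/Pfkm, 3.25 to 3.48 for Pfkl/Pfkp, 3.14 to 3.21 for Pfkm/Pfkp, 8.26 to 9.0 for Eno1/Eno3 and 1.6 to 1.73 for Ldha/Ldhb.

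Whether the replicate numbers pair the samples cannot be told from so few libraries. Same-numbered RNA libraries correlated at -0.02 and -0.01, GATA4 libraries at 0.04, -0.23 and -0.19, and ATAC libraries at 0.07, 0.05 and 0.18. Differently numbered libraries of the 2 groups correlated at -0.02 to 0.23 for GATA4 and at -0.12 to 0.05 for ATAC. Each ko ATAC library correlated most with the het library of its number. With the replicate block 5248 genes were higher and 5729 lower, and the calls of the isozyme genes did not change. Libraries of 2 to 3 per group, short second GATA4 lists and the few reads of Eno1 limit the results.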
